A study of Homo sapiens with 9 samples.

Results

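The negative limb of the circadian clock was examined in A498 cells, a human cell line from a clear cell renal cell carcinoma, after depletion of BMAL1 or of ARNT. The 9 genes were chosen by name and all were present among the 27671 genes of the count table: PER1, PER2, PER3, CRY1, CRY2, BHLHE40 (DEC1), BHLHE41 (DEC2), CSNK1D and CSNK1E. All 9 also passed the filter on low counts, which left 15551 genes for testing. The study asked how BMAL1 and ARNT, related bHLH-PAS proteins, contribute to gene expression in renal carcinoma cells. RNA was sequenced from 3 groups of 3 biological replicates each. The shControl cells (labelled WT) carried a control hairpin, the shBMAL1 cells (labelled BMAL1 knockdown) a hairpin against BMAL1, and the shARNT cells (labelled ARNT knockdown) a hairpin against ARNT. All 3 groups had been infected with lentivirus in the pLKO.1 vector and selected with puromycin, and were grown in the same serum-containing medium. Each depletion rested on 1 hairpin sequence, so an effect of a hairpin on other transcripts cannot be told apart from the effect of its target. No synchronisation of the cells or hour of collection was given for these libraries, and the phase of the clock was not tested here.

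In the mammalian clock, BMAL1 pairs with CLOCK and activates genes through E-box elements in their promoters. The PER and CRY proteins are made from such genes, assemble with casein kinase 1 delta or epsilon (CSNK1D, CSNK1E), return to the nucleus and repress BMAL1-CLOCK. BHLHE40 and BHLHE41 are bHLH repressors that bind E-boxes themselves, and BHLHE40 is also known as a gene induced by hypoxia. ARNT is the canonical partner of the hypoxia-inducible factor alpha subunits, which are stabilised in cells that lack the VHL tumour suppressor.

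The library totals were close to each other, from 35269851 to 36099075 counts. ARNTL, the symbol under which the table holds BMAL1, was 16.3 ± 0.395 CPM (counts scaled to library size; SD, n = 3, as for all group means here) in shControl and 5.02 ± 0.789 CPM in shBMAL1, a log2 fold change of -1.70. ARNT was 50.5 ± 2.24 CPM in shControl and 9.46 ± 0.433 CPM in shARNT, a log2 fold change of -2.41. Each hairpin also moved the other transcript: ARNT changed by -0.65 in shBMAL1 and ARNTL by 0.55 in shARNT on the log2 scale (edgeR adjusted p = 1.55e-08 and 8.29e-06). The renal epithelial markers PAX8, PAX2, KRT8 and KRT18 were all detected, at group means of 6.71 to 1099 CPM, and the leukocyte, endothelial, hepatocyte and fibroblast markers PTPRC, PECAM1, ALB and COL3A1 stayed at group means of 0 to 0.896 CPM. PAX8 stood at 35.98, 40.7 and 100.3 CPM and KRT8 at 1099, 1011 and 653 CPM in shControl, shBMAL1 and shARNT. The part of these shifts in the results below was not tested. In bulk RNA, fewer cells with a transcript and less of it per cell cannot be told apart. The library of shControl replicate 1 stood apart from its group, with a chi-square statistic per gene of 18.2 and 17.1 against the other replicates, which differed from each other by 4.56. Without it, the same numbers of negative limb genes were called in all 3 comparisons.

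To show where clock elements lie in the members called in the same direction in both depletions, the 250 bases before the annotated start of PER1, PER3, CRY1 and BHLHE40 are given here from RefSeq (GRCh38.p14), 5′ to 3′ on the strand of the gene, with a matched element in capitals. The capitals mark the canonical E-box CACGTG in PER1 and BHLHE40, the E-prime box AACGTG in CRY1, and in PER3 a D-box of the form TTANGTAA, the element bound by PAR-bZIP factors and by the repressor NFIL3. The window of PER1 is chr17:8152405-8152654, that of PER3 chr1:7784041-7784290, that of CRY1 chr12:107093550-107093799 and that of BHLHE40 chr3:4979187-4979436.
PER1: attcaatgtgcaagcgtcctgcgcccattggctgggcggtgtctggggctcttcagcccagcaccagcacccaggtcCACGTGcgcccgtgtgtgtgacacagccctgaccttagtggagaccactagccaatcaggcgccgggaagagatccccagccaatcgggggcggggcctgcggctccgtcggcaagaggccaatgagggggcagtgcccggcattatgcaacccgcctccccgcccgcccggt
PER3: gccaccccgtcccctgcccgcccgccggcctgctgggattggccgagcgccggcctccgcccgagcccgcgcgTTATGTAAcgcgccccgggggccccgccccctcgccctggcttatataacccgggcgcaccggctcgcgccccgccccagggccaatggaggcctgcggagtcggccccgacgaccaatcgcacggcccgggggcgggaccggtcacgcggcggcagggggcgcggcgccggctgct
CRY1: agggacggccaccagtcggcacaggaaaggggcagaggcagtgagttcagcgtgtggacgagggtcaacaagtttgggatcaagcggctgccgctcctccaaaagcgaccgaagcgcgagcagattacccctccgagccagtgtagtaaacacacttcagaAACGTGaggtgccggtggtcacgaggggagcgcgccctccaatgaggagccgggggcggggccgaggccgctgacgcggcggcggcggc
BHLHE40: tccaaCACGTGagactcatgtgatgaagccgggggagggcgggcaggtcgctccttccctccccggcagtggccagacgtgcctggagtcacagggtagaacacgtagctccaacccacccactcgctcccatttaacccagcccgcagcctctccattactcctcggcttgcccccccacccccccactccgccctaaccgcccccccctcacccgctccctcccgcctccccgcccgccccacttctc

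Both strands were searched for each element. The first base of the element lay at -173 from the start in PER1, -177 in PER3, -89 in CRY1 and -245 in BHLHE40. Of the other members, BHLHE41 held CACGTG at -48, PER2 held AACGTG at -197 on the opposite strand, CRY2 held AACGTG at -188 in the second of its windows and CSNK1E held AACGTG at -80 in the first of its windows. CSNK1D had no entry in the table used. Of the 11 windows of the 8 matched members, 3 held CACGTG, 4 held AACGTG and 1 held TTANGTAA. Among all 35116 promoter windows of the same length, 6.34% held CACGTG, 4.55% held AACGTG and 1.98% held TTANGTAA. The shorter core ACGTG lies inside both E-box forms and is also the core of the hypoxia response element. It was present in 7 of the 11 windows of the members, against 18.5% of all windows. These 7 windows belonged to 7 of the 8 members. These matches describe the letters of the reference sequence and say nothing of occupancy in A498 cells.

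The negative limb genes responded to BMAL1 depletion in different directions. PER1, PER3 and BHLHE40 fell, CRY1 rose 2.11-fold, and CSNK1D and CSNK1E rose by small amounts. In the edgeR quasi-likelihood test, at a Benjamini-Hochberg adjusted p under 0.1 over all genes tested, 6 of the 9 genes were called, 3 higher and 3 lower, where 63.4% of all genes were called (31.9% higher, 31.5% lower). In shARNT against shControl 6 of 9 were called, 1 higher and 5 lower, where 81.8% of all genes were called (40.5% higher, 41.3% lower). A share of 6 in 9 is close to the background of the first comparison and below that of the second. The median log2 fold change of the 9 genes was 0.07 in shBMAL1 and -0.13 in shARNT, and their median absolute log2 fold change was 0.18 and 0.49, against 0.32 and 0.66 over all genes. Both comparisons use the same shControl libraries, so the values are set side by side for each gene and their likeness is not tested. When libraries were scaled by their totals alone, the shARNT calls became 4 higher and 3 lower. Under that scaling the median gene of the whole table lay at 0.23 in shARNT and 0.05 in shBMAL1 on the log2 scale, and 7828 of 12939 calls of all genes in shARNT were then higher.

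**Figure D1:**
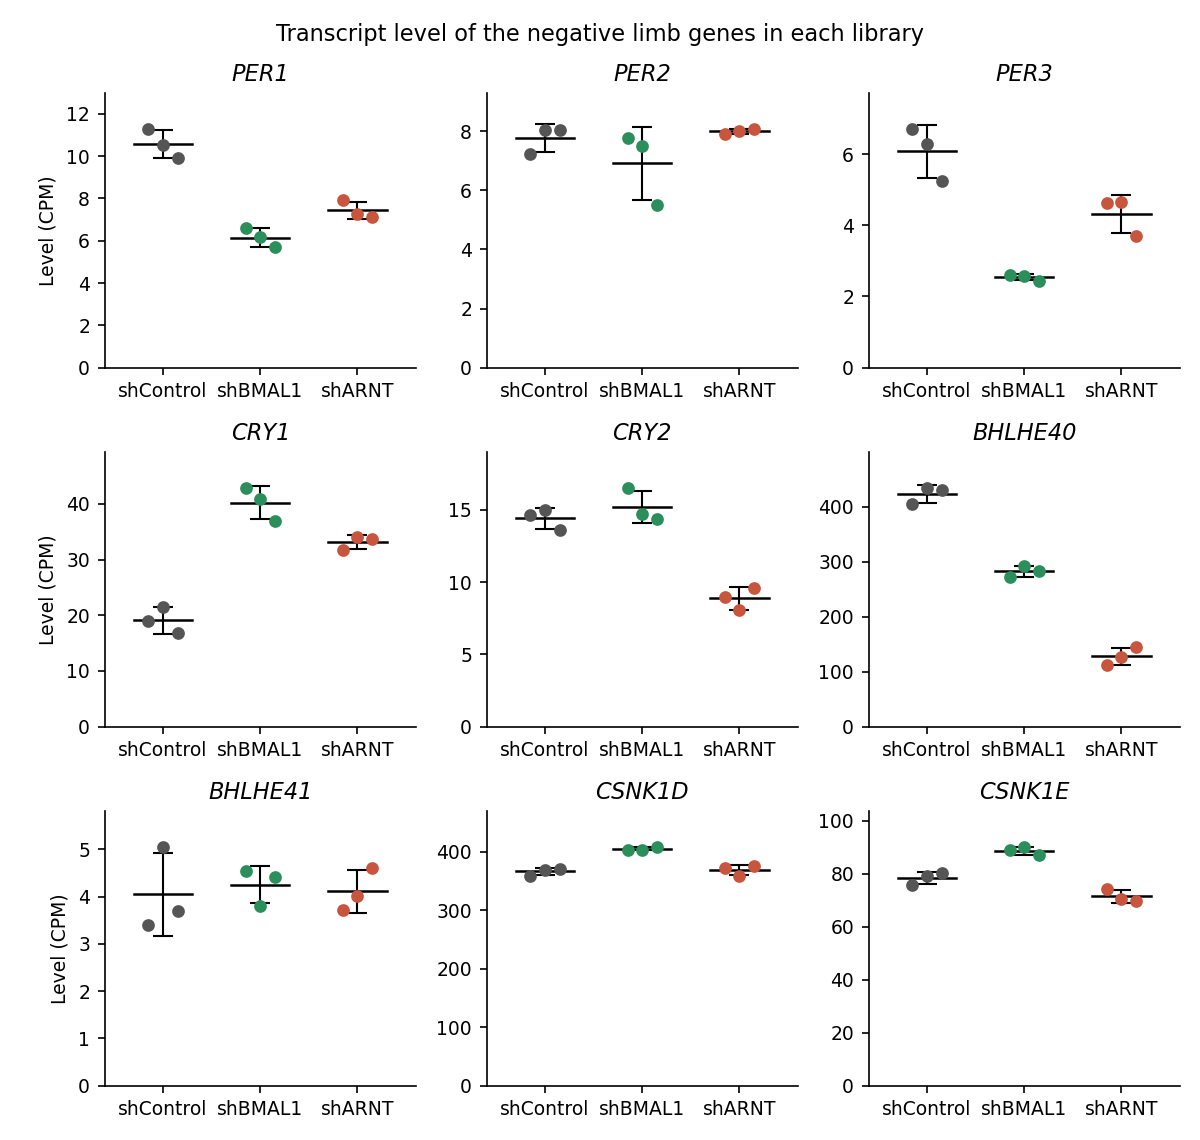
Level in CPM (vertical axes, from 0) of the 9 negative limb genes in each of the 9 libraries, with group means (lines) and SD (bars, n = 3). CRY1 is higher and PER1, PER3 and BHLHE40 are lower in every depleted library than in any shControl library, CRY2 is lower in shARNT alone, and the BHLHE41 values of the 3 groups overlap.

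PER1 (GRCh37 chr17:8043790-8059824, minus strand, 23 exons), a PER protein whose transcript also responds quickly to many acute signals, had counts of 375, 346 and 328 in shControl, 225, 212 and 194 in shBMAL1, and 313, 287 and 283 in shARNT. The means in the same order were 10.6 ± 0.669, 6.15 ± 0.438 and 7.43 ± 0.414 CPM. All depleted libraries were below all control libraries, and the ranges of the depletions did not overlap. This gave a log2 fold change of -0.78 in shBMAL1 (SE 0.105, edgeR adjusted p = 2.33e-06) and -0.51 in shARNT (SE 0.101, edgeR adjusted p = 1.33e-04). PER1 thus stood at 58.2% of its control level after BMAL1 depletion and at 70.3% after ARNT depletion.

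PER2 (GRCh37 chr2:239152685-239198743, minus strand, 23 exons), the PER protein that scaffolds the repressor complex with CRY, gave 240, 265 and 265 counts in shControl. It gave 265, 258 and 187 counts in shBMAL1, where replicate 3 was low, and 313, 317 and 320 counts in shARNT. Means were 7.76 ± 0.477, 6.91 ± 1.23 and 7.99 ± 0.0821 CPM. Each depletion overlapped shControl, and all shBMAL1 libraries lay below all shARNT libraries. Neither change passed the edgeR test. The log2 fold change was -0.17 in shBMAL1 (95% interval -0.41 to 0.07, adjusted p = 0.26) and 0.04 in shARNT (95% interval -0.19 to 0.28, adjusted p = 0.753). With scaling by library totals alone, PER2 was called higher in shARNT, at 0.28 (edgeR adjusted p = 0.0399).

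PER3 (GRCh37 chr1:7844351-7905237, plus strand, 22 exons), the PER protein regarded as least needed for the core oscillator, fell furthest of the 3 PER genes in shBMAL1. Its counts were 223, 207 and 173 in shControl, 89, 89 and 83 in shBMAL1, and 183, 184 and 147 in shARNT. The shBMAL1 libraries lay within 2.44 to 2.603 CPM and were the lowest of all, and the shARNT libraries lay between them and shControl without overlap. The log2 fold change was -1.26 in shBMAL1 (SE 0.149, edgeR adjusted p = 4.75e-07), which left 41.9% of the control level. In shARNT it was -0.49 (SE 0.139, edgeR adjusted p = 0.00325), and with scaling by library totals alone this became -0.25 and missed the threshold (adjusted p = 0.104). The PER3 window printed above held the D-box and no E-box, and a further PER3 window that was searched held none of the elements.

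CRY1 (GRCh37 chr12:107385142-107487327, minus strand, 13 exons), a strong repressor of BMAL1-CLOCK, was the only member called higher in both depletions. Its counts were 633, 707 and 553 in shControl, 1463, 1409 and 1257 in shBMAL1, and 1254, 1345 and 1335 in shARNT. Each of the 6 depleted libraries was above each control library. Mean levels were 19.1 ± 2.37, 40.2 ± 2.98 and 33.1 ± 1.26 CPM. CRY1 rose by a log2 fold change of 1.08 in shBMAL1 (SE 0.0789, edgeR adjusted p = 4.55e-10) and 0.79 in shARNT (SE 0.079, edgeR adjusted p = 1.3e-08). CRY1 thus moved opposite to PER1 and PER3, members of the same complex.

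CRY2 (GRCh37 chr11:45868669-45904799, plus strand, 12 exons), the paralog of CRY1, behaved differently in the depletions. It had 488, 494 and 449 counts in shControl, 564, 507 and 489 in shBMAL1, and 356, 318 and 381 in shARNT. The CPM of shBMAL1 overlapped shControl (14.4 to 16.5 against 13.6 to 15.01), while every shARNT library was below them, at 8.04 to 9.60 CPM. CRY2 had a log2 fold change of 0.08 in shBMAL1 (95% interval -0.10 to 0.25, edgeR adjusted p = 0.491) and -0.70 in shARNT (SE 0.0924, edgeR adjusted p = 8.14e-07).

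BHLHE40 (GRCh37 chr3:5021122-5027008, plus strand, 5 exons) was, per length, the most abundant of the 9 transcripts in control cells. It was the member that fell most in shARNT, while PER3 and PER1 fell more in shBMAL1. Its counts were 13485, 14286 and 14232 in shControl, 9331, 10089 and 9618 in shBMAL1, and 4474, 5032 and 5723 in shARNT. The groups were ordered without overlap, at 423 ± 15.9, 283 ± 9.98 and 128 ± 15.6 CPM. BHLHE40 fell, at a log2 fold change of -0.58 in shBMAL1 (SE 0.0594, edgeR adjusted p = 5.86e-08) and -1.72 in shARNT (SE 0.0614, edgeR adjusted p = 8.31e-16). The antisense transcript BHLHE40-AS1 overlaps its exons and had 15 to 55 counts per library, and whether reads were counted by strand was not stated. The opposite-strand neighbours of PER3 and BHLHE41 were lower still, UTS2 with 2 to 22 counts and SSPN with 0 to 4.

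BHLHE41 (GRCh37 chr12:26272963-26277970, minus strand, 5 exons), the paralog of BHLHE40 with a similar repressor role, was low and gave no call. Its counts were 113, 166 and 122 in shControl, 155, 131 and 150 in shBMAL1, and 147, 159 and 183 in shARNT. The CPM ranges of the 3 groups overlapped. Its log2 fold change was 0.07 in shBMAL1 (95% interval -0.24 to 0.39, edgeR adjusted p = 0.725) and 0.03 in shARNT (95% interval -0.29 to 0.34, edgeR adjusted p = 0.89). The change of BHLHE40 in shARNT, -1.72, lies outside this interval.

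CSNK1D (GRCh37 chr17:80196899-80231576, minus strand, 9 exons) and CSNK1E (GRCh37 chr22:38686697-38714089, minus strand, 11 exons) encode the kinases that phosphorylate PER proteins and set their stability. CSNK1D had 11969, 12160 and 12241 counts in shControl, 13807, 13913 and 13875 in shBMAL1, and 14741, 14180 and 14919 in shARNT. The CPM of shBMAL1, 404 to 408, lay above that of shControl, 360 to 371, and shARNT overlapped shControl at 358 to 376. The log2 fold change of CSNK1D was 0.14 in shBMAL1 (SE 0.0346, edgeR adjusted p = 0.0013) and 0.01 in shARNT (95% interval -0.06 to 0.08, edgeR adjusted p = 0.816).

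CSNK1E had 2525, 2610 and 2648 counts in shControl, 3049, 3102 and 2962 in shBMAL1, and 2949, 2782 and 2767 in shARNT. In CPM the groups did not overlap, with shBMAL1 highest at 88.8 ± 1.52, shControl at 78.4 ± 2.28 and shARNT lowest at 71.5 ± 2.58. For CSNK1E the log2 fold change was 0.18 in shBMAL1 (SE 0.0457, edgeR adjusted p = 0.00229) and -0.13 in shARNT (SE 0.0458, edgeR adjusted p = 0.0122), and the latter turned to 0.10 (adjusted p = 0.0468) when libraries were scaled by totals alone. In the same setting CSNK1D in shARNT became 0.25 (edgeR adjusted p = 1.46e-06). The kinase changes were small beside those of PER1, PER3, CRY1 and BHLHE40. CSNK1E shares exons with the readthrough transcript TPTEP2-CSNK1E, so its counts may include reads of that transcript. Exons of PER1 overlap an unnamed annotated gene on the same strand. Those of PER2, PER3, CRY1 and CSNK1D overlap unnamed genes on the opposite strand. The share of reads from these genes was not tested.

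The CPM ranges of shBMAL1 and shControl did not overlap for 6 of the 9 genes, against 62.2% of all genes, and those of shARNT and shControl for 6 of 9, against 79.8%. Depletion of ARNT was then compared with depletion of BMAL1 directly, a contrast that uses no control library. Here 7 of the 9 genes were called by the edgeR test, 2 higher and 5 lower in shARNT, where 81.2% of all genes were called (40.1% higher, 41.1% lower). The ranges did not overlap for 8 of the 9 genes, against 79.6% of all genes. The median log2 difference of the 9 genes was -0.14, and the median absolute difference 0.28 against 0.64 over all genes.

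BHLHE40 differed most, at a log2 difference of -1.14 (SE 0.0609, edgeR adjusted p = 5.95e-13), followed by CRY2 at -0.78 (SE 0.0918, adjusted p = 1.77e-07) and PER3 at 0.77 (SE 0.151, adjusted p = 1.19e-04). PER3 and PER1 (0.27, SE 0.106, edgeR adjusted p = 0.0245) were thus lower in shBMAL1, while BHLHE40 and CRY2 were lower in shARNT. CSNK1E was lower in shARNT by a log2 difference of -0.31 (SE 0.0456, edgeR adjusted p = 3.18e-06). CRY1 differed by -0.28 (SE 0.0746, edgeR adjusted p = 0.00199) and CSNK1D by -0.14 (SE 0.0346, edgeR adjusted p = 0.00141). With scaling by library totals alone, CRY1 fell short of the threshold at -0.09 (edgeR adjusted p = 0.274) and CSNK1D turned to 0.05 (adjusted p = 0.148), and the calls became 3 higher and 3 lower.

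PER2 was the gene whose ranges did not overlap without a call in the direct contrast. Its log2 difference was 0.21 (95% interval -0.03 to 0.45, edgeR adjusted p = 0.121), and it passed without shBMAL1 replicate 1 (0.30, adjusted p = 0.0537) or without shBMAL1 replicate 2 (0.27, adjusted p = 0.0821). Scaling by library totals alone gave 0.40 (edgeR adjusted p = 0.00559). BHLHE41 differed by -0.05 (95% interval -0.36 to 0.26, edgeR adjusted p = 0.797).

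**Figure D2:**
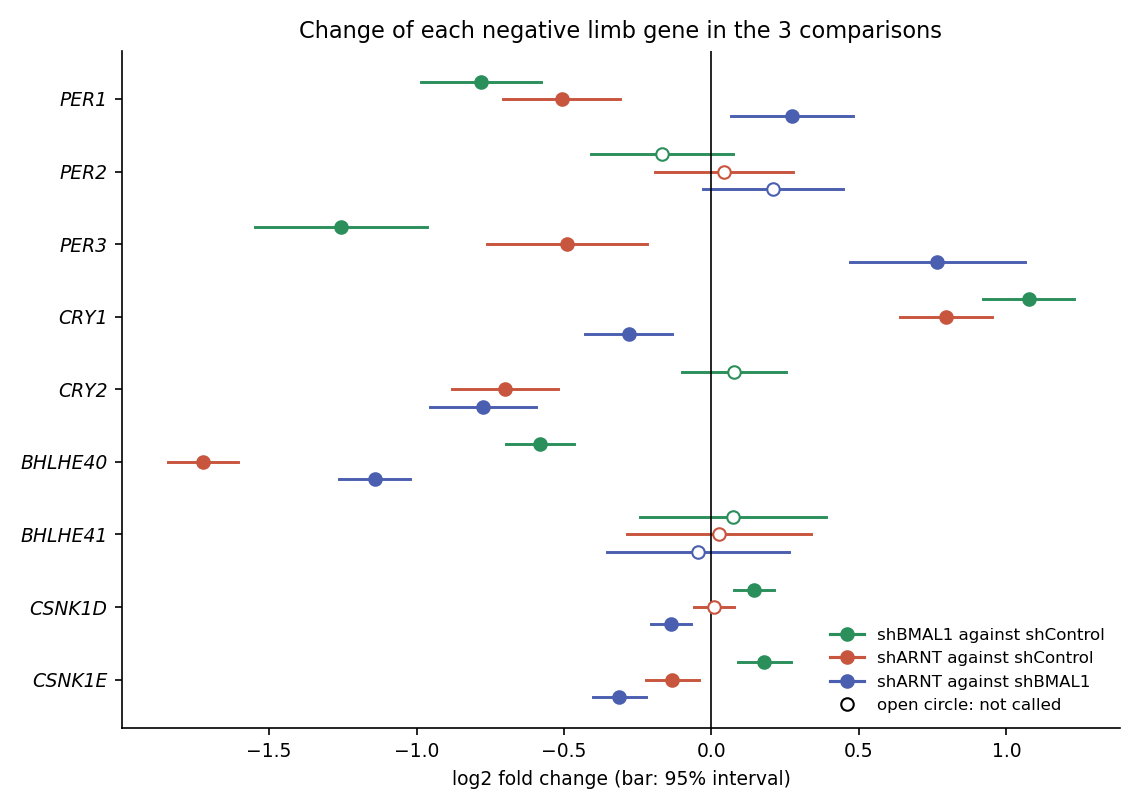
Log2 fold change (horizontal axis) of each negative limb gene in the 3 comparisons, with 95% intervals as bars. Filled circles passed the edgeR test at an adjusted p under 0.1. BHLHE40 in shARNT lies furthest from 0, at -1.72, CRY1 is the member called to the right in both depletions, and CRY2 departs from 0 in the shARNT comparisons alone.

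Levels of different genes were compared as CPM per kilobase of the annotated transcript. In shControl the order was BHLHE40 (134 ± 5.03), CSNK1D (99.6 ± 1.65), CSNK1E (27.8 ± 0.809), CRY1 (6.39 ± 0.793), CRY2 (3.49 ± 0.178) and PER1 (2.26 ± 0.143), each above the next without overlap. PER2 (1.22), BHLHE41 (1.08) and PER3 (0.954) followed, and neighbours among these last genes overlapped between libraries. In both depletions CSNK1D took the place at the top, at 110.1 in shBMAL1 and 100.2 in shARNT, and BHLHE40 came next at 89.7 and 40.6. The length used for CSNK1D was 3681 bases, and its longest annotated transcript has 6094. Its place above BHLHE40 in shBMAL1 depends on this choice. PER3 was lowest in every group, at 0.399 in shBMAL1 and 0.680 in shARNT. BHLHE41 and PER2 overlapped in shBMAL1, and no neighbours overlapped in shARNT. CRY1 per kilobase rose to 13.5 in shBMAL1 and 11.1 in shARNT, while CRY2 stood at 3.68 and 2.15.

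The balance between paralogs was also measured as the ratio of their counts within each library, which does not depend on scaling between libraries. These ratios of counts are not corrected for length, and an exact permutation test of 3 against 3 libraries cannot go below p = 0.1. The CRY1 to CRY2 ratio had a geometric mean of 1.32 in shControl, 2.65 in shBMAL1 and 3.74 in shARNT. The groups were fully separated in each of the 3 comparisons (exact permutation p = 0.1, two-sided). The log2 ratio rose by 1.01 in shBMAL1, where CRY1 alone was called, and by 1.504 in shARNT, where CRY1 was called higher and CRY2 lower.

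The BHLHE40 to BHLHE41 ratio had a geometric mean of 106 in shControl, 66.7 in shBMAL1 and 31.1 in shARNT, again fully separated (exact permutation p = 0.1 in each comparison). The PER1 to PER2 ratio was 1.36 in shControl, 0.898 in shBMAL1 and 0.929 in shARNT. It was separated from shControl in both depletions (exact permutation p = 0.1), and the depletions overlapped (exact permutation p = 0.6, log2 difference 0.05). The PER3 to PER2 ratio was 0.780, 0.372 and 0.538 in the same order, and was separated in all 3 comparisons (exact permutation p = 0.1). The CSNK1D to CSNK1E ratio was 4.67 in shControl and 4.57 in shBMAL1, which overlapped (exact permutation p = 0.3), and 5.16 in shARNT, above both (exact permutation p = 0.1). In all, 15 such comparisons were made, and after Benjamini-Hochberg adjustment the smallest p was 0.115.

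**Figure D3:**
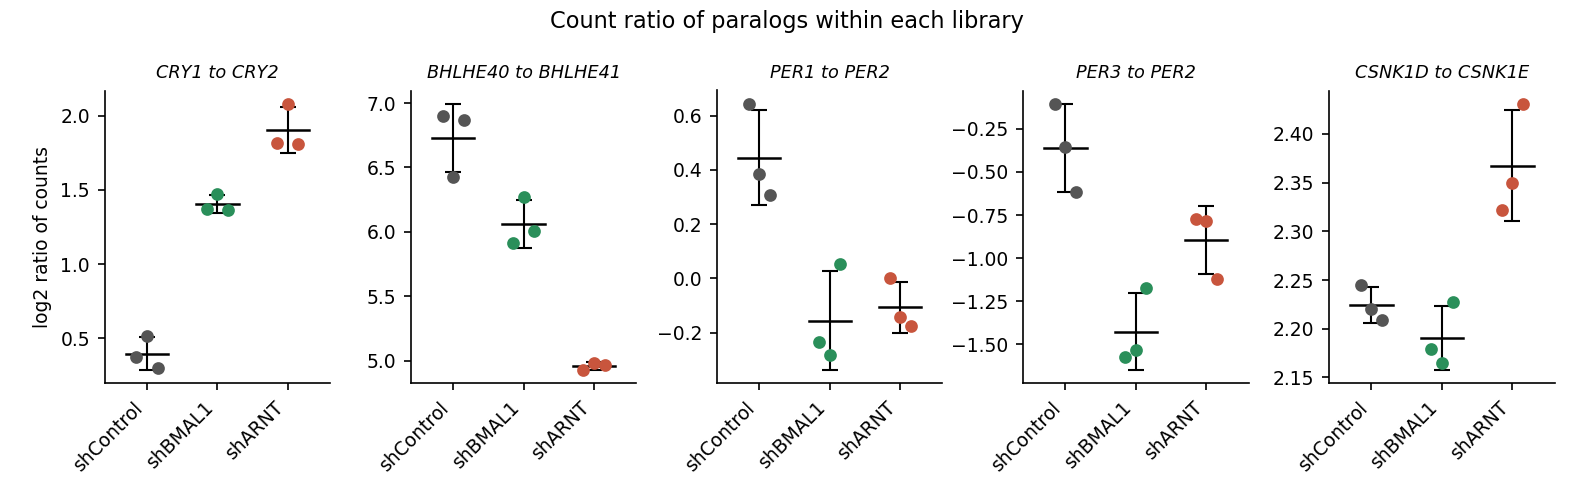
Log2 ratio of the counts of 2 paralogs within each library (vertical axes, each with its own range), with group means (lines) and SD (bars, n = 3). CRY1 to CRY2 is lowest in shControl and highest in shARNT, BHLHE40 to BHLHE41 runs in the opposite order, and PER1 to PER2 overlaps between the depletions.

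PER and CRY proteins are turned over through phosphorylation and ubiquitin ligases, and a list of 26 genes for their modifiers and partners was examined next. Of these, 25 passed the filter on low counts. In shBMAL1 5 rose and 6 fell, so that 11 of 25 were called, a smaller share than the 63.4% of all genes. In shARNT 17 rose and 5 fell, 22 of 25 against 81.8% of all genes, and 40.5% of all genes were called higher. With scaling by library totals alone the shARNT split was 19 higher and 2 lower. The median log2 fold change of the list was -0.04 in shBMAL1 and 0.37 in shARNT. In the direct contrast 16 were higher and 4 lower in shARNT, where 81.2% of all genes were called (40.1% higher, 41.1% lower), so that the share called, 20 of 25, was close to the background. The median log2 difference was 0.46.

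By role, the shARNT calls comprised all 5 phosphatases and deubiquitinases (5 higher), 4 of 5 tested partners (4 higher), 5 of 7 ligase subunits (4 higher, 1 lower) and all 8 kinases (4 higher, 4 lower). Of all genes, 81.8% were called in this comparison (40.5% higher, 41.3% lower). The roles hold few genes each and were not tested against that share. FBXL21, an F-box protein, had 24 to 42 counts per library and a log2 difference of -0.60 between shARNT and shBMAL1 (SE 0.291, edgeR adjusted p = 0.0661), a call that DESeq2 did not make (adjusted p = 0.156). The FBXL21 call was also lost with library totals alone (edgeR adjusted p = 0.201) and without shBMAL1 replicate 1 (0.192), shBMAL1 replicate 2 (0.106), shARNT replicate 1 (0.156) or shARNT replicate 2 (0.172).

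Among the other named genes of this list, PRKAA2, a catalytic subunit of the AMP-activated kinase that can phosphorylate CRY, fell, at a log2 fold change of -0.89 in shBMAL1 and -1.07 in shARNT (edgeR adjusted p = 3.35e-05 and 1.55e-06). PPP1CB, a catalytic subunit of protein phosphatase 1, rose, at a log2 fold change of 0.73 in shBMAL1 and 0.73 in shARNT (edgeR adjusted p = 1.21e-10 and 2.09e-11). RBX1, the RING subunit of cullin ligases, rose by a log2 fold change of 0.46 in shBMAL1, and WDR5, a PER-associated histone methylation factor, fell at -0.58 (edgeR adjusted p = 6.45e-07 and 3.59e-08). TIMELESS, a replication fork protein known to bind PER and CRY, was higher in shARNT than in shBMAL1 by 1.13 (edgeR adjusted p = 2.27e-13).

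CIPC, a repressor of CLOCK listed in the table as KIAA1737, had 280, 282 and 259 counts in shARNT and 90, 84 and 96 in shBMAL1. In shControl it had 140, 72 and 56 counts, with replicate 1 well above the others. Its log2 fold change in shARNT was 1.36 (SE 0.21, edgeR adjusted p = 7.01e-06) and ranged from 1.11 to 1.83 when single libraries were left out. USP2, a deubiquitinase that acts on clock proteins, had 88 counts in the shARNT libraries together against 31 in shControl. Its log2 fold change was 1.24 (SE 0.391, edgeR adjusted p = 0.00732).

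Of 8 further clock genes, 7 passed the filter. In shBMAL1 4 of these were called (2 higher, 2 lower) against 63.4% of all genes, in shARNT 6 (3 higher, 3 lower) against 81.8%, and in the direct contrast 7 (4 higher, 3 lower) against 81.2%. NR1D1 and NR1D2, the REV-ERB repressors driven by BMAL1 through E-boxes, had log2 fold changes of -2.01 and -1.31 in shBMAL1 and stood at -0.14 and 1.58 in shARNT, where NR1D1 was not called. NFIL3 stood at 0.77 in shBMAL1 and -1.36 in shARNT. TEF, a PAR-bZIP activator, was called in shARNT at 0.94. RORA, a nuclear receptor that activates BMAL1, was called higher in shBMAL1 at 1.01 and lower in shARNT at -0.93 (edgeR adjusted p = 0.0165 and 0.0403). RORA had only 9 to 57 counts per library, and its shARNT range overlapped shControl. At a minimum fold of 1.5 its shBMAL1 call was lost (edgeR adjusted p = 0.237).

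**Figure D4:**
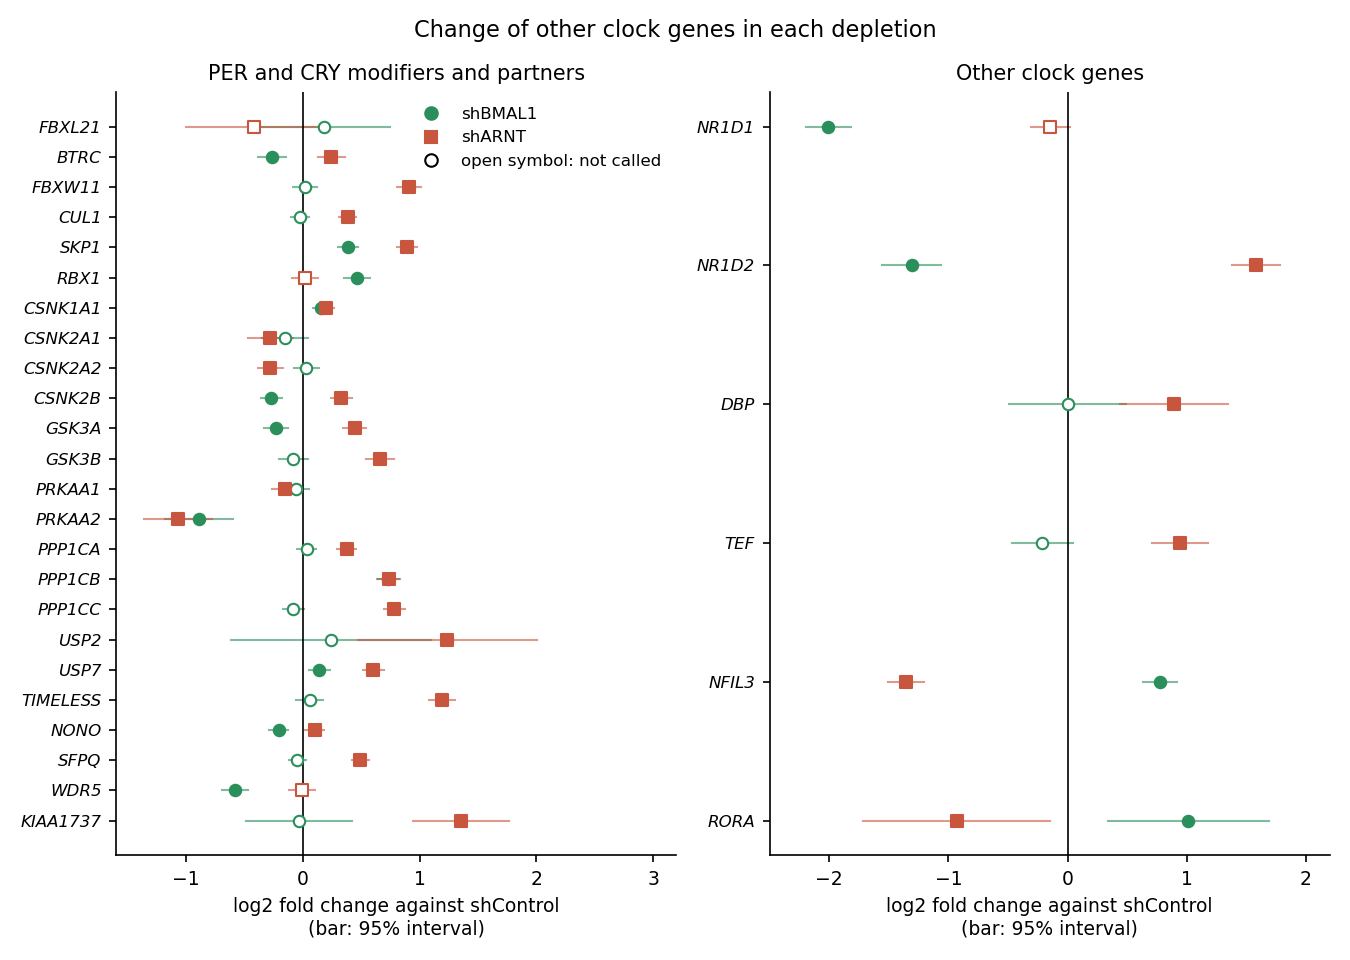
Log2 fold change against shControl (horizontal axes) of tested modifier and partner genes (left) and of the other clock genes (right) in shBMAL1 and shARNT, with 95% intervals as bars. Filled symbols passed the edgeR test, the PPP1CB symbols coincide at 0.73, and genes not reported here are not drawn. Of the 25 tested modifier and partner genes, drawn or not, 17 were called higher and 5 lower in shARNT. In shBMAL1 5 were called higher and 6 lower. Of all genes, 40.5% were called higher and 41.3% lower in shARNT, and 31.9% and 31.5% in shBMAL1.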

How the data were processed

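Total RNA of 9 A498 cultures was made into stranded mRNA libraries and read from both ends on a BGISEQ-500 instrument. Per the study's methods the authors aligned reads to GRCh37 with SeqMan NGen and exported counts with ArrayStar, whereas the submitters' processing notes name hg38, STAR and DESeq2. The deposited values match the former by their header, and the conflict was not resolved. The deposited values were expected counts (total reads per gene, not normalised), with 0.05 standing for no reads. Use of strand, treatment of reads with several alignments, and the choice between reads and read pairs were not given in the sources used here.

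Values of 0.05 were set to 0, repeated names (45 names) were summed and the counts were rounded. Groups followed the labels. Differential expression was tested in edgeR 4.0.16 (R 4.3.3) by quasi-likelihood with TMM scaling and filterByExpr. The model was fitted to all 9 libraries with group as the factor, and a call required an adjusted p (Benjamini-Hochberg, over the 15551 genes tested) under 0.1 in any of 3 contrasts. The scripts were tested on simulated data. CPM were computed on TMM-scaled library sizes, SE is from the F statistic, and intervals of 95% assume a normal error. At totals of 35269851 to 36099075 counts, low genes such as BHLHE41 were the least precise. Replicates are labelled biological, and p-values measure the spread between these samples. Paralog ratios were compared by an exact two-sided permutation test.

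Gene positions are from GENCODE lifted to GRCh37, and promoter windows from RefSeq (GRCh38.p14), with 8 of 9 members matched by symbol. The rule for named genes took the 9 members, the targeted genes, in each contrast the 2 called genes of each list with the largest rise and fall, and the 3 genes closest in pattern to PER2, CRY1 and BHLHE40. A few genes of these lists are counted but not reported by name here. Members and lists were chosen with earlier results of these data known. Alternatives were library size alone, RLE factors, DESeq2 1.42.0, no filter, 6 libraries, a replicate block, halved counts, a threshold of 0.05, a minimum fold of 1.5, 0.5 counts added to ratios, and each library left out.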

Additional observations from a re-analysis of the deposited data

Results flagged for a closer look

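The direct contrast of shARNT with shBMAL1 in edgeR tests whether the effects of the depletions differ, and 7 negative limb genes passed it at an adjusted p under 0.1, where 81.2% of all genes did. In shARNT, PER1 was higher by 0.27 and PER3 by 0.77 on the log2 scale. CRY1 stood at -0.28, CRY2 at -0.78, BHLHE40 at -1.14, CSNK1D at -0.14 and CSNK1E at -0.31. CSNK1E was called higher in shBMAL1 and lower in shARNT against shControl, and CRY2 was called in shARNT alone. The calls of CRY1 and CSNK1D were lost when libraries were scaled by totals alone, and no cause of these differences was tested.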

How the results depend on the processing

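The numbers of negative limb genes called kept within 1.5 times of the reported values under every alternative except a minimum fold of 1.5, which left 3 of 9 in each of the 3 comparisons (1 higher and 2 lower in each) and 2, 10 and 7 of the modifier list in shBMAL1, shARNT and the direct contrast. Under that setting 2110, 6966 and 6831 of all genes were called. With library totals alone, CSNK1E in shARNT turned to 0.10, CSNK1D in the direct contrast to 0.0547 and BHLHE41 in the direct contrast to 0.14. PER2 in shARNT (0.28) and in the direct contrast (0.40) and CSNK1D in shARNT (0.25) passed the threshold, and PER3 in shARNT (-0.25) and CRY1 in the direct contrast (-0.09) missed it; the cause was not tested. With the 6 libraries compared, CSNK1D in shARNT was -0.0022.

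Leaving out single libraries turned the sign of changes that were not called, and lost the FBXL21 call of the direct contrast when any 1 of 4 libraries was left out. PER2 in shARNT ranged from -0.0105 to 0.0669, BHLHE41 from -0.0404 to 0.26 in shBMAL1, from -0.0889 to 0.21 in shARNT and from -0.13 to 0.0244 in the direct contrast, CSNK1D in shARNT from -0.0071 to 0.031, and the PER1 to PER2 log2 ratio between the depletions from -0.015 to 0.15. The signs turned without shControl replicate 1 (PER2 -0.0105, BHLHE41 -0.0404 in shBMAL1 and -0.0889 in shARNT, CSNK1D -0.0071), shControl replicate 3 (BHLHE41 -0.0379) or shARNT replicate 3 (BHLHE41 -0.0622, CSNK1D -0.00234) in the control comparisons. In the direct contrast they turned without shARNT replicate 1 (BHLHE41 0.0244, the PER1 to PER2 ratio -0.0049) or shBMAL1 replicate 2 (the same ratio, -0.015). The numbers of members called ranged from 6 to 6, 6 to 6 and 7 to 8, those of the modifier list from 11 to 12, 21 to 22 and 18 to 21, and those of the other clock genes from 4 to 4, 5 to 7 and 7 to 7.

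The replicate block, with the replicate number as an added factor, gave 6, 6 and 7 negative limb genes called and changed no call of a named gene. Libraries of the same number did not deviate together in every pairing (correlations from -0.16 to 0.24 over 7795 genes, with each library closest to its own number in 1 of 3 comparisons), so the numbers were not taken to pair the samples. BHLHE41, at 113 to 183 counts, had a 95% interval from -0.29 to 0.34 in shARNT. The parts of depth and of spread between replicates in this interval were not tested.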

Other observations

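The genes whose pattern over the 9 libraries was closest to that of PER2, CRY1 and BHLHE40 were sought among 11226 genes by the root mean square difference of centred log2 CPM. For CRY1 these were UNC13B (0.0940), TRIB1 (0.107) and ADORA2B (0.107), with log2 fold changes of 1.07, 1.11 and 1.19 in shBMAL1 and 0.80, 0.83 and 0.83 in shARNT. For BHLHE40 they were PRDM8 (0.0779), LEPREL1 (0.0825) and MAP3K6 (0.0829), at -0.59, -0.52 and -0.57 in shBMAL1 and -1.69, -1.72 and -1.72 in shARNT. For PER2 they were LSM2 (0.0679), ZNF251 (0.0722) and OSBPL7 (0.0815), with log2 fold changes of -0.28, -0.23 and -0.14 in shBMAL1 and smaller ones in shARNT. These genes were selected for their likeness over these libraries, and no test was made of it.

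Within shBMAL1, replicate 3 was the lowest of its group for 6 of the 9 members and replicate 1 the highest for 6. Replicate 3 was also the lowest of its group for ARNTL, at 140 counts against 185 and 191. The 6 members lowest in replicate 3 included PER1 and PER3, called lower in shBMAL1, and CRY1 and CSNK1E, called higher. The share of all genes lowest in replicate 3 is not given here, and a link to the level of ARNTL was not tested.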
